A study of Mus musculus with 4 samples.

Results

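RNA-binding and splicing factor genes were defined by symbol, as the protein-coding genes of the Hnrnp, Srsf, Rbm, Sf3a and Sf3b, U2af and Prpf families on chromosomes 1 to 19 of the GENCODE M21 annotation of the mouse genome (GRCm38). The rule found 90 of 20780 genes: 35 Rbm, 19 Hnrnp, 13 Prpf, 11 Srsf, 9 Sf3 and 3 U2af genes. The rule uses no measured value, although the families were picked with earlier results of these data known. H3K36me3, trimethylation of lysine 36 of histone H3, was mapped in these genes by chromatin immunoprecipitation and sequencing (ChIP-seq) with antibody ab9050 in primary renal tubular epithelial cells (PTECs) from the kidney cortex of C57BL/6 mice. Setd2-KO PTECs had the genotype SETD2fl/fl KspCre/+ and control PTECs SETD2fl/fl, so both carried floxed Setd2 alleles and only the Setd2-KO cells carried Cre, driven by the kidney-specific cadherin (Ksp) promoter. The labels give no age. There was 1 ChIP and 1 input library per genotype, with no replicates. All differences are therefore between these 2 ChIP libraries, no test between genotypes was possible, and the 95% exact binomial intervals (Clopper-Pearson) cover counting error only. The share of Setd2-KO cells that escaped Cre was not measured.

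SETD2 travels with elongating RNA polymerase II and places H3K36me3 on the bodies of transcribed genes, more towards their ends than at their starts. The mark is tied to RNA processing through adaptor proteins that read it and bind splicing regulators, such as MRG15 (Morf4l1), which recruits PTB, and Psip1, which recruits SRSF1. Of the families examined, hnRNPs often repress and SR proteins often activate exons, U2AF marks the 3' splice site, the SF3 complex of the U2 snRNP holds the branch point, and PRPF proteins belong mainly to the U4/U6.U5 tri-snRNP. Rbm proteins share RNA recognition motifs but have mixed roles. The H3K36me3 values here are those on the genes that encode these proteins, and neither RNA nor splicing was measured.

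A peak is an interval where the authors' peak caller found more ChIP fragments than background, and a gene counted as marked if any peak of the list shared 1 bp or more with it. A gene without a peak may still carry the mark below the calling limit. The Setd2-KO list held 2732 peaks and the control list 12242, a ratio of 4.48 of control over Setd2-KO, while the genome-wide background pileup was 6.54 and 6.58 overlapping fragments in Setd2-KO and control PTECs. Read totals are not used here. Setd2 itself had 0 Setd2-KO peaks and 5 control peaks over 3077 bp, which does not measure recombination. Of 17 proximal tubule markers, 5 had a Setd2-KO peak (29.4%, against 7.76% of all genes) and 11 a control peak (64.7%, against 20.5%). Of 17 markers of the loop, distal tubule and collecting duct, 0 had a peak in either list, and of 16 immune, endothelial and fibroblast markers only Kdr had one, in control PTECs.

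Reference sequence (GRCm38, 5' to 3' on the strand of the gene) is shown for 4 sites called in both genotypes, because they are among the highest Setd2-KO peaks of the 90 genes with a coding exon and no UTR beside the summit. Each run spans 240 bases of the Setd2-KO peak around its summit, coding exon in capitals and intron in lower case. The Srsf5 window (chr12:80947394-80947633, plus strand) holds exon 4 of 8, Hnrnph1 (chr11:50382607-50382846, plus) exons 7 and 8 of 15, Rbm5 (chr9:107745044-107745283, minus) exon 19 of 25, and Hnrnpa1 (chr15:103242252-103242491, plus) exons 5 and 6 of 11.
Srsf5: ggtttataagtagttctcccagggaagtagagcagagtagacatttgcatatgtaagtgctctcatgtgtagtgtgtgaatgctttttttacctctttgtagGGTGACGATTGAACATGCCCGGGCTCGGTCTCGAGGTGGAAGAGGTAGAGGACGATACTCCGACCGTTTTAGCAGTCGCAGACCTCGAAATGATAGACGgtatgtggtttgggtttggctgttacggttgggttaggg
Hnrnph1: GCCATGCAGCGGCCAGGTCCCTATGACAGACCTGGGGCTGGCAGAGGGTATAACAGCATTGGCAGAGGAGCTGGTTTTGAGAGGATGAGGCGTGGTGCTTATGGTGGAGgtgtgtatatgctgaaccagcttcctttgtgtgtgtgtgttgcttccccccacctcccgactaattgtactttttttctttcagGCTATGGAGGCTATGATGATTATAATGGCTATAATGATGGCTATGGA
Rbm5: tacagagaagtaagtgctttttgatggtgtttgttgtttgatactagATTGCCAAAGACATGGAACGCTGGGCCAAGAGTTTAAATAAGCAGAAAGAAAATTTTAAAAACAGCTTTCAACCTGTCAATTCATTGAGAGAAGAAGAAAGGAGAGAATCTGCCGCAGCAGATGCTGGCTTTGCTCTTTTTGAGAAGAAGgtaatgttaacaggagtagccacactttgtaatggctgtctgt
Hnrnpa1: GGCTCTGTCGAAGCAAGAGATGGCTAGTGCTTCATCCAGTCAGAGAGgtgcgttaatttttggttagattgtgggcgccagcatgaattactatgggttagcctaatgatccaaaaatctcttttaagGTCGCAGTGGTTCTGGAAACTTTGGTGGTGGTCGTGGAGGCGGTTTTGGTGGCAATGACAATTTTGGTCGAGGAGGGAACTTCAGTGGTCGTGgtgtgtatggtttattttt
All 4 windows hold at least 1 exon that follows an intronic ag and at least 1 that precedes an intronic gt, the usual ends of an intron. Their G and C content ranged between 39.2% in Rbm5 and 50% in Hnrnph1. The Setd2-KO peak had a fold enrichment over background of 4.99 at the Srsf5 site against 3.27 in the overlapping control peak, and of 4.90 at Hnrnph1 against 5.34 in control. At Rbm5 the values were 4.57 in Setd2-KO PTECs and 4.75 in the control peak that enters the window, while another control peak, which overlaps the same Setd2-KO peak outside the window, had 5.41. The values were at Hnrnpa1 4.21 in Setd2-KO and 4.55 in control. The Setd2-KO peak was thus the higher one at Srsf5 and the lower one at Hnrnph1, Rbm5 and Hnrnpa1. Of the 32-base words under these Setd2-KO peaks, 74.7% in Hnrnpa1 and 82.9% in Srsf5 occur once in the genome, and 100% in Hnrnph1 and Rbm5.

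To learn how much of the mark these genes held with and without Setd2, the marked genes were counted in each list. Of the 90 genes, 34 (37.8%, 95% CI 27.8 to 48.6) had a Setd2-KO peak, against 7.76% of all 20780 genes. In control PTECs, 57 (63.3%, 95% CI 52.5 to 73.2) had a peak, against 20.5% of all genes. Both shares, with their intervals, lay above those of all genes. Of the 57 control-marked genes, 33 (57.9%, 95% CI 44.1 to 70.9) also had a Setd2-KO peak, while the same held for 34.5% of all control-marked genes. In value, members stayed above all genes when peaks were limited to a -log10 q of at least 5 (50%, against 32.4%). The same held at a fold enrichment of at least 4 (34.1%, against 23.8%). No interval is given for these 2 shares, so they were not set against counting error. At the 2 strictest limits, which leave few genes, members lay below. At a -log10 q of at least 10, 4 of 26 control-marked members (15.4%, 95% CI 4.36 to 34.9) had a Setd2-KO peak, against 19.1% of all genes, and at a fold enrichment of at least 5, 1 of 13 (7.69%, 95% CI 0.195 to 36.03), against 20.4%, and both intervals include the value of all genes. Only Rbm14 had a peak in Setd2-KO and none in control PTECs, 1 of 90 genes, where 0.674% of all genes did. A further 24 genes had a peak in control PTECs only, and 32 had none in either list.

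Members that stayed marked had fewer bases under called peaks in Setd2-KO than in control PTECs. In members the peaks numbered 67 in Setd2-KO PTECs over 29319 bp and 273 in control PTECs over 144351 bp. In 29 of the 33 genes marked in both, Setd2-KO peaks covered at most 50% of the bases that control peaks covered (87.9%, against 63.8% of all genes marked in both), and in 0 of the 33 did they cover more, which 117 of all genes did. Over the 33 genes the Setd2-KO coverage had a median of 29.3% of control (36.6% over all genes marked in both). With 2 to 4 control peaks these medians were 32.4% and 38.5%, and with 5 or more 24.5% and 19.8%. Over all 57 control-marked members the median was 18.04% (95% interval 0 to 25.9), against 0% over all control-marked genes. That interval includes 0%, so members could not be told apart from all genes by this median. The 4 exceptions above 50% were Prpf38b (965 bp in Setd2-KO, 1086 bp in control), Hnrnpk (926 bp in Setd2-KO and 1119 bp in control), Prpf39 (392 bp in Setd2-KO and 523 bp in control) and Prpf19 (377 bp in Setd2-KO and 629 bp in control), each with 1 or 2 peaks per list. The 1 Setd2-KO peak of Prpf39 and 1 of its 2 control peaks also touched Fkbp3, and without peaks shared between genes Prpf39 had no Setd2-KO peak.

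**Figure D1:**
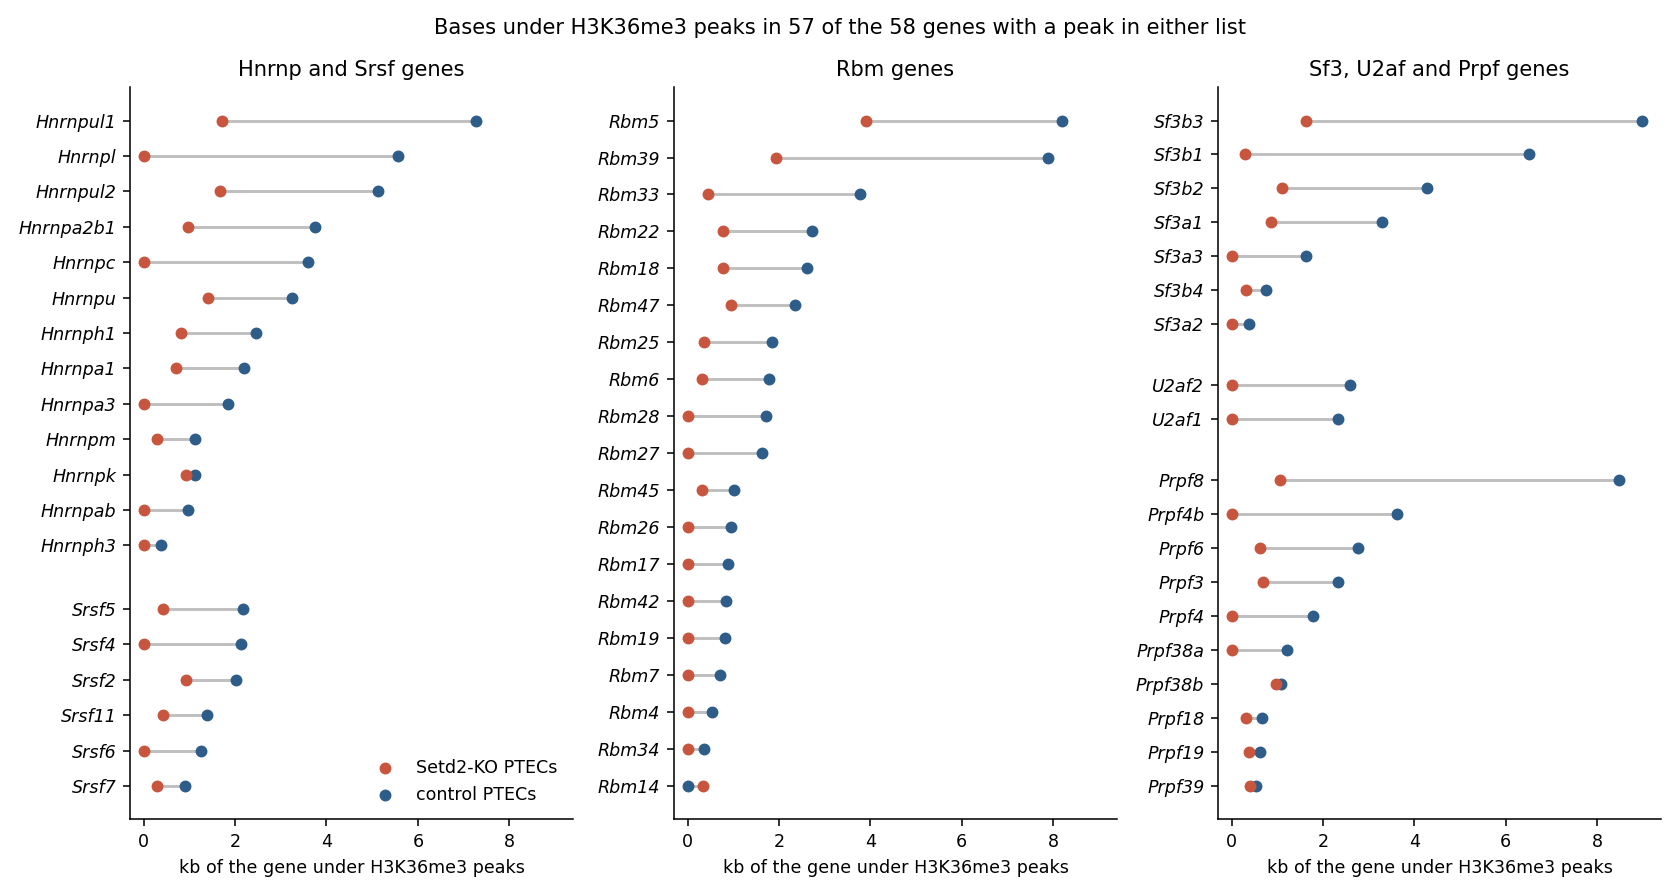
Bases under H3K36me3 peaks (kb, x axis) in 57 of the 58 RNA-binding and splicing factor genes with a peak in either list, by family. Red points are Setd2-KO PTECs and blue points control PTECs, 1 library each; Rbm14 is the only gene with its red point to the right of the blue one, and Sf3b3, Prpf8, Rbm5 and Rbm39 have the most control bases.

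Among the 19 Hnrnp genes, which encode the proteins that coat new transcripts and shape exon choice, 8 were marked in Setd2-KO and 13 in control PTECs. These are 42.1% and 68.4%, against 7.76% and 20.5% of all genes. Hnrnpul1 (chr7:25721165-25754757, minus strand), whose protein resembles the nuclear scaffold protein hnRNP U, had 4 Setd2-KO peaks over 1709 bp and 14 control peaks over 7278 bp. All 4 of its Setd2-KO peaks overlapped control peaks, and its highest control peak, with a fold enrichment of 6.60 the highest of any member peak, lay in intron 7 and overlapped no Setd2-KO peak. Hnrnpul2 had 3 Setd2-KO peaks over 1678 bp and 11 control peaks over 5125 bp. Hnrnpu, the founding gene of that group, had 3 Setd2-KO peaks over 1407 bp and 5 control peaks over 3249 bp, and only 1 of the 3 overlapped a control peak.

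Hnrnpl (chr7:28808541-28822266, plus strand), whose protein binds CA-rich RNA and in human cells was found to bind SETD2, had 0 Setd2-KO peaks and 6 control peaks over 5561 bp, 40.5% of the gene. The longest of all member peaks, 2462 bp, lay in intron 7 of its representative transcript. This peak also touched an exon found only in transcripts annotated for nonsense-mediated decay. Hnrnpc, whose protein binds uridine runs, likewise had 0 Setd2-KO peaks and 8 control peaks over 3587 bp, although only 55.9% of the 32-base words of its exons occur once in the genome. Hnrnpa2b1, which encodes a repressor of exon inclusion, had 972 bp in Setd2-KO PTECs, compared with 3758 bp in control PTECs. Hnrnph1, whose protein binds runs of G, had 820 bp in Setd2-KO and 2458 bp in control, and its 2 Setd2-KO peaks (fold enrichments 4.71 and 4.90) were among the 5 highest in members. Hnrnpa0, Hnrnpd, Hnrnpdl, Hnrnpf, Hnrnpll and Hnrnpr had no peak in either list.

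The 11 Srsf genes encode SR proteins, which bind exonic enhancers and help the spliceosome define exons. Of these, 4 were marked in Setd2-KO (36.4%, against 7.76% of all genes) and 6 in control PTECs (54.5%, against 20.5%). Srsf2 (chr11:116849901-116853094, minus strand), the SC35 protein of nuclear speckles, had 1 Setd2-KO peak of 933 bp and 3 control peaks over 2016 bp, which with 63.1% of its 3194 bp made it the most densely covered member in control PTECs. The Setd2-KO peak and all 3 control peaks also touched Mettl23, a gene that overlaps Srsf2, and 1 control peak touched Mfsd11 too, so that the whole coverage of Srsf2 cannot be told apart from that of its neighbours. Srsf5 had 1 Setd2-KO peak of 429 bp and 3 control peaks over 2163 bp. Srsf11 had 427 bp in Setd2-KO PTECs, compared with 1380 bp in control PTECs, and Srsf7 290 bp in Setd2-KO and 908 bp in control, and in neither gene did the Setd2-KO peak overlap a control peak. Srsf4 (0 Setd2-KO peaks, 5 control peaks over 2133 bp) and Srsf6 (0 Setd2-KO peaks, 2 control peaks over 1260 bp) were marked in control PTECs only. Srsf1, the prototype of the family, had no peak in either list, and neither did Srsf3, Srsf9, Srsf10 or Srsf12.

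Of the 35 Rbm genes, 10 were marked in Setd2-KO (28.6%, against 7.76% of all genes) and 18 in control PTECs (51.4%, against 20.5%). Rbm5 (chr9:107740371-107770996, minus strand), a regulator of the splicing of cell death genes in human cells, had more Setd2-KO bases than any other member, with 9 peaks over 3908 bp, and 17 control peaks over 8204 bp. Of its 9 Setd2-KO peaks, 7 overlapped control peaks. The highest one (fold enrichment 4.91) was in intron 4 and was one of the other 2. Most of the Setd2-KO peaks lay in the part of the gene from exon 12 onwards, where control peaks were also densest. Its neighbour and paralogue Rbm6 had 1 Setd2-KO peak of 313 bp and 4 control peaks over 1774 bp. Rbm39 (chr2:156147239-156180238, minus strand), a U2AF-related splicing factor, had 4 Setd2-KO peaks over 1934 bp and 14 control peaks over 7888 bp. Rbm33 had 450 bp in Setd2-KO PTECs against 3774 bp in control PTECs, and its 1 Setd2-KO peak, in the last exon, overlapped no control peak.

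Other Rbm genes were covered over fewer control bases than Rbm5, Rbm39 and Rbm33. Rbm22, a component of the active spliceosome, had 769 bp in Setd2-KO PTECs, compared with 2714 bp in control PTECs, Rbm47, a cofactor of APOBEC1 RNA editing, 957 bp in Setd2-KO and 2347 bp in control, and Rbm18 767 bp in Setd2-KO and 2614 bp in control. The Rbm18 peak in intron 4 was the highest Setd2-KO peak in members, with a fold enrichment of 5.30, close to the 5.18 of the control peak it overlapped. Rbm14, a transcriptional coactivator found in paraspeckles, had 1 Setd2-KO peak of 337 bp in the 3' UTR (chr19:4801298-4801634, fold enrichment 3.70) and 0 control peaks, and the peak also touched Gm21992, a readthrough gene. The Rbm genes without a peak in either list numbered 16 of 35. They include Rbm20 and Rbm24, regulators of muscle splicing, Rbm44 and Rbm46, known from germ cells, and Rbm8a, whose Y14 protein is a core part of the exon junction complex.

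The Sf3 and U2af genes encode the machinery that recognises the branch point and the 3' splice site. Of 9 Sf3 genes, 5 were marked in Setd2-KO (55.6%, against 7.76% of all genes) and 7 in control PTECs (77.8%, against 20.5%). Sf3b3 (chr8:110810239-110846787, minus strand) had 3 Setd2-KO peaks over 1620 bp and 15 control peaks over 8980 bp, the most control bases of all members. Sf3b1 (chr1:54985169-55027481, minus strand), the subunit that grips the branch point and is mutated in human myeloid neoplasms, had 1 Setd2-KO peak of 289 bp at exon 24 and 12 control peaks over 6511 bp. Its Setd2-KO bases numbered 4.44% of its control bases, the lowest value of the 33 genes marked in both. Sf3b2 had 1099 bp in Setd2-KO PTECs, compared with 4274 bp in control PTECs, and Sf3a1 872 bp in Setd2-KO and 3296 bp in control. Sf3a3 (1639 bp) and Sf3a2 (372 bp) were covered in control PTECs only. Neither U2AF subunit gene had a Setd2-KO peak. U2af2, which binds the polypyrimidine tract, had 0 Setd2-KO peaks and 5 control peaks over 2590 bp, and U2af1, which binds the terminal AG, 0 Setd2-KO peaks and 2 control peaks over 2322 bp. The control peak at exon 6 of U2af2 had a fold enrichment of 5.94. Only 69.0% and 70.9% of the exon words of U2af2 and U2af1 are unique.

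Of the 13 Prpf genes, 7 were marked in Setd2-KO (53.8%, against 7.76% of all genes) and 11 in control PTECs (84.6%, against 20.5%). Prpf8 (chr11:75486816-75509449, plus strand), the scaffold of the catalytic centre, had 2 Setd2-KO peaks over 1064 bp and 13 control peaks over 8489 bp, 37.5% of the gene. The control peaks ran from exon 5 to exon 40 of 42, and both Setd2-KO peaks lay between exons 8 and 15. Prpf4b, a kinase of tri-snRNP proteins, had 0 Setd2-KO peaks and 8 control peaks over 3622 bp, and the U4/U6 protein gene Prpf4 0 Setd2-KO peaks and 5 control peaks over 1792 bp. Prpf6, which bridges the snRNPs of the tri-snRNP, had 626 bp in Setd2-KO PTECs, compared with 2765 bp in control PTECs, and Prpf3, a further U4/U6 protein gene, 681 bp in Setd2-KO and 2322 bp in control. Prpf31 and Prpf40b had no peak in either list.

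**Figure D2:**
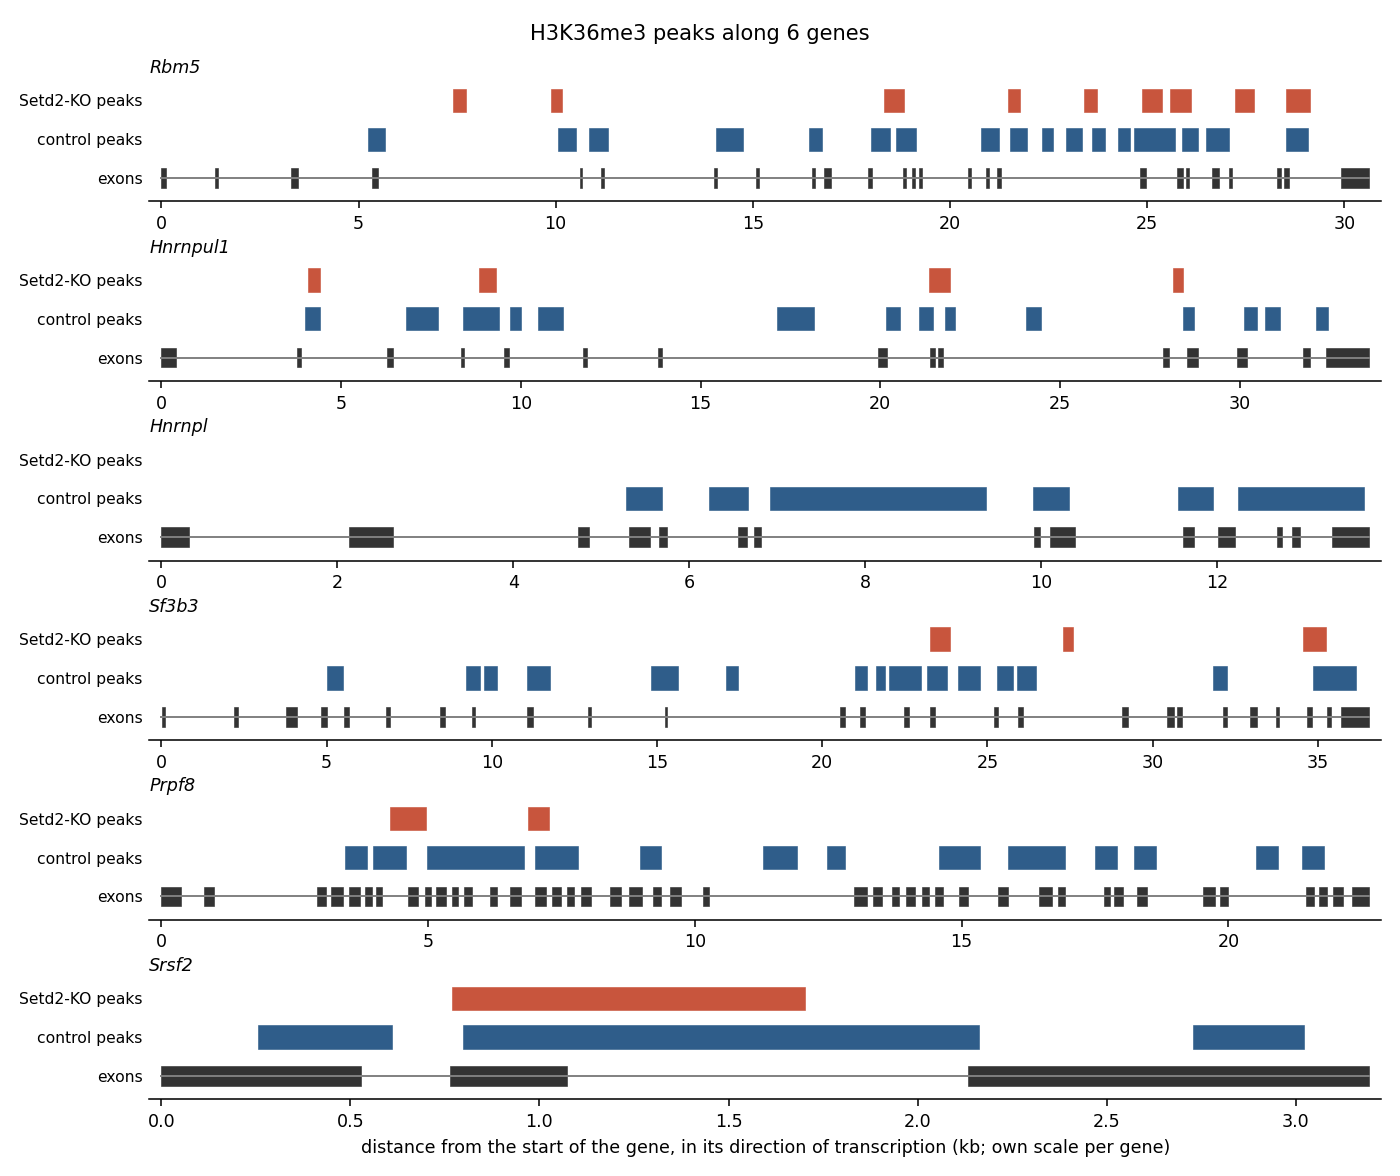
Setd2-KO peaks (red, upper row), control peaks (blue, middle row) and exons of the representative transcript (lower row) along 6 genes, against distance from the start of the gene in kb on a scale of its own for each gene. Rbm5 had 9 Setd2-KO and 17 control peaks, Prpf8 had 2 against 13, and Hnrnpl had 0 against 6.

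By family, the share of control-marked genes with a Setd2-KO peak was 5 of 7 Sf3 genes (71.4%, 95% CI 29.04 to 96.3), 4 of 6 Srsf genes (66.7%, 95% CI 22.3 to 95.7), 7 of 11 Prpf genes (63.6%, 95% CI 30.8 to 89.1), 8 of 13 Hnrnp genes (61.5%, 95% CI 31.6 to 86.1), 9 of 18 Rbm genes (95% CI 26.02 to 74.0) and 0 of 2 U2af genes (95% CI 0 to 84.2). All 6 intervals overlap, so no family stood apart at these numbers, and all 6 include the 34.5% of all control-marked genes.

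Genes with more control peaks had a Setd2-KO peak more often, among members and among all genes, and members had more of them, a median of 4 per control-marked gene against 2. Among genes with 5 or more control peaks, 15 of 22 members (68.2%, 95% CI 45.1 to 86.1) had a Setd2-KO peak, against 68.5% of all 727 such genes. With 2 to 4 control peaks it was 17 of 29 (58.6%, 95% CI 38.9 to 76.5), against 37.0% of 1837, and with 1 control peak 1 of 6 (16.7%, 95% CI 0.421 to 64.1), against 17.3% of 1706. Members thus lay above all genes in the middle class only, where the lower bound of their interval is close to the value of all genes.

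**Figure D3:**
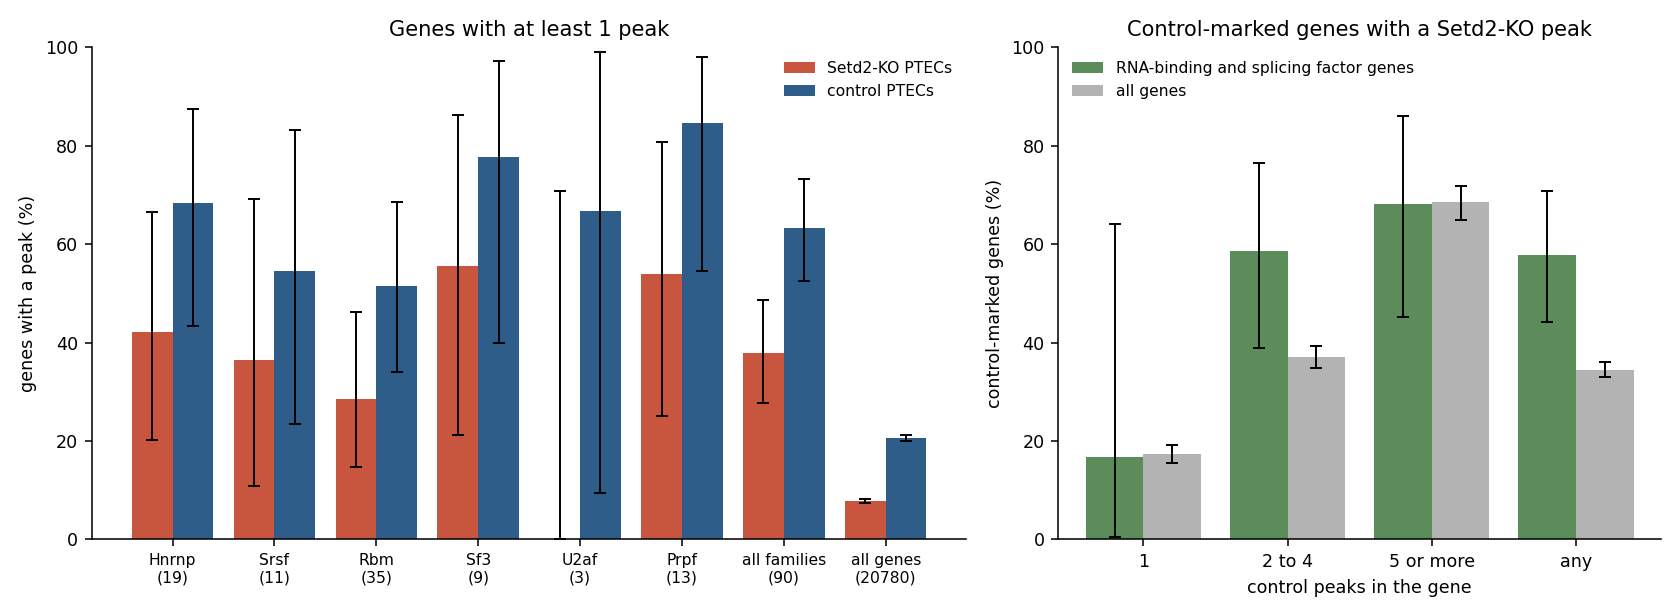
Left, percent of genes with at least 1 peak in Setd2-KO (red) and control PTECs (blue), by family, for all 90 members and for all 20780 genes, with the number of genes in brackets. Right, percent of control-marked genes that also had a Setd2-KO peak, by number of control peaks, for members (green) and all genes (grey); error bars are 95% exact binomial intervals, which for members are wide and in the classes of 1 and of 5 or more control peaks include the value of all genes.

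Marked members were shorter than other marked genes and more densely covered. Control-marked members had a median length of 18717 bp and a median of 10.8% of the gene under control peaks, against 30490.5 bp and 3.25% over all control-marked genes. The ratio to all genes was largest in genes under 10 kb, of which 6748 of 7273 had no peak in either list. The shares of marked members were themselves lower there than among longer members. Of 28 such members, 8 (28.6%, 95% CI 13.2 to 48.7) had a Setd2-KO peak and 15 (53.6%, 95% CI 33.9 to 72.5) a control peak, against 2.09% and 7.04% of all 7273 genes of that length. From 30 kb upwards, 12 of 23 members (52.2%) had a Setd2-KO peak and 19 (82.6%) a control peak, against 11.4% and 29.4% of all genes.

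Within genes, member peaks lay mostly past the middle, and control member peaks were less often in the last part of the gene than control peaks of all genes. Median place was 64.5% of the gene length from its start in Setd2-KO and 65.1% in control PTECs, against 69.9% and 70.1% for peaks in all genes. The last 20% of the gene held 26.9% (95% CI 16.8 to 39.1) of 67 Setd2-KO and 27.8% (95% CI 22.6 to 33.6) of 273 control member peaks, against 35.1% and 35.7% over all genes, so that only the control interval lay below the value of all genes. The first 20% held 4.48% and 6.96% of Setd2-KO and control member peaks, against 5.08% and 4.86% over all genes. An annotated exon was touched by 71.6% (95% CI 59.3 to 82.0) of Setd2-KO and 71.4% (95% CI 65.7 to 76.7) of control member peaks, against 60.5% and 58.7% over all genes, and again only the control interval lay clear of the value of all genes. Intervals for shares of peaks, here and below, treat peaks as independent, although 57 genes hold the 273 control peaks. They are therefore too narrow to settle such differences. Many of these genes carry poison exons, which send the transcript to nonsense-mediated decay, and an exon found only in transcripts annotated for such decay was touched by 1 of 67 Setd2-KO and 8 of 273 control peaks (1.49% and 2.93%, against 1.52% and 1.51% over all genes).

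**Figure D4:**
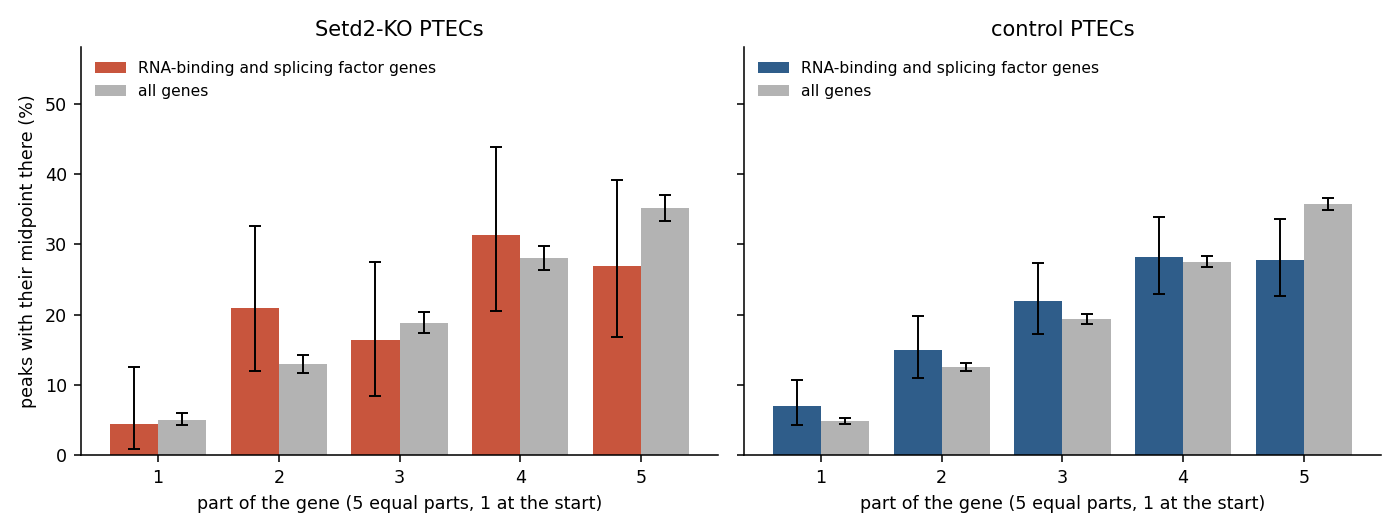
Percent of peaks with their midpoint in each of 5 equal parts of the gene, from its start (part 1) to its end (part 5), in Setd2-KO (left) and control PTECs (right), for peaks in members (coloured) and in all genes (grey), with 95% exact binomial intervals. In both genotypes member peaks are spread over the last 4 parts, with 26.9% and 27.8% in part 5.

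Peaks that were called were of similar height in both genotypes, and both lists end at a calling limit. Median fold enrichment in members was 3.74 (quartiles 3.51 and 4.13) in Setd2-KO and 3.83 (quartiles 3.52 and 4.22) in control PTECs, against 3.85 and 3.83 over peaks in all genes. Besides the Rbm18, Rbm5 and 2 Hnrnph1 peaks, the 5 highest Setd2-KO peaks included the Srsf5 peak (4.99). The 5 highest control peaks were in Hnrnpul1 (6.60), U2af2 (5.94), Rbm39 (5.83), Srsf2 (5.58) and Prpf38b (5.57), and of these only the Srsf2 and Prpf38b peaks overlapped a Setd2-KO peak. Of 273 control member peaks, 49 (17.9%, 95% CI 13.6 to 23.0) shared bases with a Setd2-KO peak, and 12.5% of control peaks in all genes did, an order that turned round at a fold enrichment of at least 4 (9.18% of control member peaks, 95% CI 4.29 to 16.7, against 11.4% of those in all genes). From the other side, 47 of 67 Setd2-KO peaks (70.1%, 95% CI 57.7 to 80.7) overlapped a control peak, against 60.7%, a value within that interval. At the 51 overlapping pairs the ratio of Setd2-KO to control fold enrichment had a median of 0.908, ranging between 0.617 and 1.56, and the Setd2-KO peak was lower in 31 pairs (60.8%). These ratios also carry the local background. The pair at 1.56 (Hnrnpa2b1) had a pileup of 34 in both lists, over backgrounds of 7.44 in Setd2-KO and 12.1 in control. The pair at 0.617 (Prpf38b) had pileups of 40 in Setd2-KO and 46 in control, over backgrounds of 10.9 and 7.45. Over all 1668 pairs the median ratio was 0.936 and 61.6% were lower. The 49 control peaks that overlapped a Setd2-KO peak were longer than the other 224, with medians of 570 bp and 424 bp. Over all genes these medians were 620 bp and 399 bp, and an overlap rule of 1 bp favours longer peaks.

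Other RNA-processing genes, listed apart from the 90, were counted in the same way, beside 7.76% of all genes in Setd2-KO and 20.5% in control PTECs. Of 33 exon junction complex and SR-related genes, 20 (60.6%) had a Setd2-KO peak and 29 (87.9%) a control peak, the highest shares of these lists with over 3 genes. Srrm2, which forms the core of nuclear speckles, had 7 Setd2-KO peaks over 3896 bp and 12 control peaks over 7187 bp, and its speckle partner Son had 8 Setd2-KO peaks over 2955 bp and 13 control peaks over 7944 bp. Clk1, a kinase of SR proteins, had 1757 bp in Setd2-KO PTECs, compared with 7293 bp in control PTECs, and Ccar1 552 bp in Setd2-KO and 8167 bp in control. Of 63 core spliceosome and snRNP genes, 14 (22.2%) had a Setd2-KO peak and 35 (55.6%) a control peak. Gpatch1 had 2895 bp in Setd2-KO PTECs, compared with 4629 bp in control PTECs, and Snrnp200, the helicase that unwinds U4/U6, 1825 bp in Setd2-KO and 7081 bp in control. Of 49 other alternative splicing regulators, 12 (24.5%) had a Setd2-KO peak and 23 (46.9%) a control peak, 11 of them in both. Ptbp1, the PTB gene, had 1017 bp in Setd2-KO and 3124 bp in control, and Pcbp2 321 bp in Setd2-KO and 4665 bp in control. Mbnl1, named because it was the one exception, had 1 Setd2-KO peak of 367 bp and 0 control peaks. Of 3 genes of H3K36me3 adaptors, Morf4l1 (1004 bp in Setd2-KO, 2610 bp in control) and Zmynd11 (381 bp in Setd2-KO and 593 bp in control) were marked in both and Psip1 in neither.

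Many of these families have processed copies elsewhere in the genome, where reads can be assigned to the wrong copy. In 18 of the 90 genes under 90% of the 32-base words of the exons were unique, among them Hnrnpa3 (12.3%), Hnrnpf (30.8%), Sf3b4 (45.1%), Hnrnpa1 (46.4%), Hnrnpc (55.9%) and Srsf10 (57.8%), and values of these genes are uncertain. Of the 67 Setd2-KO and 273 control member peaks, 8 and 52 had under 90% unique words. Another coding gene was touched by 3 and 9 of them. The local background stayed low at member peaks, with medians of 6.96 in Setd2-KO and 6.94 in control PTECs.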

How the data were processed

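Groups follow the sample labels, although the study's methods also describe ChIP on kidney cysts and tumour masses of mice that overexpress MYC, and the design text mentions a further histone mark. In the submitters' processing notes the tools are cutadapt 1.9.1, Trimmomatic 0.35, FastQC, Bowtie2 2.2.6, MACS2 2.1.1 and ChIPseeker, with build GRCm38 (mm10). The authors deposited 1 peak list per genotype, each called with the matching input as background. The signal in the deposited pileup column is the number of fragments over the summit. The fold enrichment deposited by the authors is a ratio of pileup to local background. The deposited -log10 p-value and -log10 q-value columns come from the authors' peak caller. Which fold and q limits made the lists is not clear from the sources used here, since most deposited peaks lie below a limit named there.

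Local background was recovered as (pileup + 1) / fold enrichment - 1, and its lowest value in a list stands for depth, on which the limit of calling depends. Genes came from GENCODE M21, with the longest entry kept for repeated symbols (27 dropped), and exon numbers from the representative coding transcript (best APPRIS rank). Promoter, exon and place classes used the peak midpoint. Uniqueness was the percent of 32-base words found once in the reference genome, on both strands. Python 3.11.15, numpy 2.4.6, pandas 2.3.3, scipy 1.17.1 and matplotlib 3.10.9 were used, and the overlap and word counting steps were checked on simulated data. The members, gene lists and named genes were chosen with earlier results of these data known. Genes were named by rule: Setd2, in each family the up to 6 members with the most control bases, the up to 5 with the most Setd2-KO bases and those marked in Setd2-KO only, up to 3 and 2 in other lists, and the 5 highest peaks per list, while any member could be listed by its number of peaks. Hnrnph1, Prpf19, Rbm6, Sf3a2, Mbnl1, Kdr and the genes with raised background were chosen after their values were seen. Alternatives changed the peak thresholds, the overlap rules, the number of peaks needed, shared peaks, the families and the uniqueness of peaks. Some genes that the rule names, and 1 site, are not reported here.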

Additional observations from a re-analysis of the deposited data

How the results depend on the processing

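Several alternatives kept each count of members and peaks within 1.5 times its value and each share within its 95% interval. These were rules on how a peak must overlap a gene (midpoint inside, or at least 200 bp) and a -log10 q of at least 5. The same held when peaks of several genes, or with under 90% unique words, were left out. Without the Rbm family 43 Setd2-KO peaks remained, and no other count or share left these ranges. At a fold enrichment of at least 4, 17 members had a Setd2-KO peak, 34.1% of control-marked members had one (23.8% of all genes), member peaks numbered 23 in Setd2-KO and 98 in control PTECs, and 9.18% of these control peaks overlapped a Setd2-KO peak, below the 11.4% over all genes. At a fold enrichment of at least 5, members with a peak numbered 1 in Setd2-KO and 13 in control PTECs, with 1 and 13 peaks, and both shares were 7.69%, against 20.4% of control-marked genes and 18.1% of control peaks over all genes. At a -log10 q of at least 10, members with a peak numbered 4 in Setd2-KO and 26 in control PTECs, with 5 and 48 peaks, 15.4% of control-marked members had a Setd2-KO peak and 4.17% of control peaks overlapped one, against 19.1% and 14.3% over all genes. With at least 2 peaks per gene, 17 members were marked in Setd2-KO, 33.3% of those marked in control PTECs (19.5% over all genes). Asking for 50% of the shorter peak gave 13.2% of control member peaks shared with Setd2-KO, and allowing 1 kb between peaks 32.2%. The shares over all genes under these 2 rules are not given here, so members cannot be set against them. The median of Setd2-KO bases as a percent of control bases was 5.96 at a -log10 q of at least 5. It was 0 at a fold enrichment of at least 4 or 5 and at a -log10 q of at least 10. In the main counts the 95% interval of this median, 0 to 25.9, starts at 0. No fall could leave that interval, so the stability of this median was not tested. Stricter limits leave fewer peaks by construction. Of 74 peak counts of named genes, 62 moved by over 1.5 times at a fold enrichment of 5 and 59 at a -log10 q of 10, against 8 at a -log10 q of 5. No paired analysis was possible because each genotype had 1 ChIP library. Depth limits weak sites: the lowest summit pileup in members was 25 fragments in Setd2-KO and 23 in control PTECs.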

Other observations

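Cwc22 (chr2:77881159-77946375, minus strand), which encodes a spliceosome protein that in human cells brings eIF4A3 to the exon junction complex, had 1 Setd2-KO peak of 326 bp and 25 control peaks over 29051 bp, the most control bases of the core spliceosome genes. Its control peaks differ from peaks of the 90 genes in their background. At the Setd2-KO peak the local background was 6.54, the genome-wide value, with a summit pileup of 26. The local background at the 25 control peaks ran from 36.7 to 66.8 fragments (median 43.4), where the genome-wide value of that library was 6.58, and their summit pileups ran from 76 to 192 fragments. The fold enrichment at the control peaks, 1.74 to 4.01, is relative to the raised background. The input reads over this gene were not analysed here, and the part of the raised background in the difference between genotypes was not tested. Genes with at least 3 peaks at over 3 times the genome-wide background numbered 3 in Setd2-KO PTECs (Hjurp, Gm21738 and Gm10717) and 5 in control PTECs (the same 3, Gm10719 and Cwc22). None of these is one of the 90 genes, whose local background was at most 15.3 fragments in Setd2-KO and 13.1 in control PTECs.

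Of the 20 Setd2-KO member peaks that overlapped no control peak, 19 (95%) lay in genes that had a control peak elsewhere, where 874 of 1015 such peaks in all genes (86.1%) did. Median length of these 20 was 354 bp, against 415 bp for the 47 that overlapped one, and their median fold enrichment was 3.84 against 3.74. Over all genes the order of the fold enrichments was the other way, with 3.74 for peaks that overlapped none and 3.98 for those that did.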
